A study of Mus musculus with 3 samples.

Results

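H3K4me3, the trimethylated form of lysine 4 of histone H3 and a mark of active and poised promoters, was examined at 7 genes of GABAergic interneurons, the inhibitory nerve cells that release gamma-aminobutyric acid (GABA). The genes were Gad1, Gad2, Dlx1, Dlx2, Lhx6, Npy and Sst. Members were all deposited H3K4me3 peaks that overlapped 1 of 6 windows of the mouse genome (build mm9) by at least 1 bp, with Dlx1 and Dlx2 in 1 window. The windows held 8 of the 19631 peaks in the mutant library and 5 of the 18515 peaks in the wild-type library.

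The mutant library came from N171-82Q mice, a Huntington's disease model (HD), and the other library from their wild-type littermates (WT). The N171-82Q transgene codes for an N-terminal fragment of mutant huntingtin and is driven by the mouse prion protein promoter, so the full-length disease gene is not expressed from it. Both groups were adult C57/DBA F1 hybrid males, untreated as far as the labels say, and each chromatin immunoprecipitation used whole hippocampi pooled from 3 mice. Each genotype had 1 library, so the differences below describe 1 pair of libraries, have no replicate check and carry no p-value. The files hold peak positions and a score, without read counts, and library depth is unknown. The score ran from 50.01 to 3233.06 in each list and was compared only among peaks of the same list, since it can vary with depth. Covered length means the summed width of the peaks of a library.

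Interneurons make GABA with 2 glutamate decarboxylases, GAD67 (Gad1) and GAD65 (Gad2). Their precursors arise in the ventral forebrain, where the homeobox proteins Dlx1 and Dlx2 are needed for their production and migration, and where the LIM homeobox protein Lhx6 directs the parvalbumin and somatostatin classes. Neuropeptide Y (Npy) and somatostatin (Sst) are peptides that subsets of mature interneurons release beside GABA. Interneurons are a minority of hippocampal cells, and in whole tissue a different number of marked cells and a different extent of the mark per cell cannot be told apart. Known markers of other cell types were not placed on the peaks, because no gene annotation of mm9 was used here, and for the same reason the position of each gene inside its window was not checked.

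Promoter sequences, 250 bases before to 50 bases after each gene's start, were taken from RefSeq for the build GRCm38.p6. This is a later build than that of the peaks, and its positions cannot be laid over them. All 7 genes matched, with 9 promoters in all, 3 of them of Lhx6. CG dinucleotides, which are dense at promoters that commonly carry H3K4me3, are in capitals. Shown are the promoters of Dlx2, whose side of its window had the largest gain in HD among the 5 member regions marked in both libraries, of Gad2, with a peak in both libraries, and of Sst, whose window had no peak. They lie on the minus strand at chr2:71546705-71547004 for Dlx2, on the plus strand at chr2:22622077-22622376 for Gad2 and on the minus strand at chr16:23890795-23891094 for Sst.
Dlx2: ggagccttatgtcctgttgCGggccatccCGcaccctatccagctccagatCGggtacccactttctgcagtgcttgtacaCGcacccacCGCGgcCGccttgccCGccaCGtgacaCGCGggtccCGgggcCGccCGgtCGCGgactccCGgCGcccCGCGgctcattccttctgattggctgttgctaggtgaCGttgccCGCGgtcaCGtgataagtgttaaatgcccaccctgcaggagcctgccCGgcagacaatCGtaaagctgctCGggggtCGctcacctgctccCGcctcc
Gad2: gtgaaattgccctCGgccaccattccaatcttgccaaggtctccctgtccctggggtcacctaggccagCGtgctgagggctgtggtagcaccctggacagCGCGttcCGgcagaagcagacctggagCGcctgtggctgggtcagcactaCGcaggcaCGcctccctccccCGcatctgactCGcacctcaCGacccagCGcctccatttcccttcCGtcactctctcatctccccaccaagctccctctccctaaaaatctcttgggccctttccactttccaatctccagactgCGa
Sst: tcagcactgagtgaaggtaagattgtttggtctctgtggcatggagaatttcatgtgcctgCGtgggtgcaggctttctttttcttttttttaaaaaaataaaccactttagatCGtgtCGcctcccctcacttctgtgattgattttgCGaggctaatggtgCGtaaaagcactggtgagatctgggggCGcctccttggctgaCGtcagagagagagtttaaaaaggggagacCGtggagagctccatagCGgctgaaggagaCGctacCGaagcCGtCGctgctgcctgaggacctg

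The Dlx2 promoter held 29 CG dinucleotides, the Gad2 promoter 14 and the Sst promoter 13. The median over all 32851 promoters of the table was 7, with quartiles of 3 and 20. Gad1 had 21, Dlx1 27, Npy 24 and the Lhx6 promoters 16, 17 and 11. Every member promoter thus lay above the median, and Sst, without a peak in its window, differed from Gad2 by 1 CG dinucleotide. Letters TGACGTCA, the cAMP response element, were searched on both strands. They occurred in the Sst promoter, starting 48 bases before the gene's start, in no other member promoter, and in 1.79% of all promoters. Of 14 other interneuron genes chosen for the same look, 9 matched, with 19 promoters holding 2 to 47 CG dinucleotides (median 10). Of these promoters, 14 had no more than Sst. This counts promoters, not genes: Sox6 had 6 of them and Satb1 had 5, the latter with 3 to 45 CG dinucleotides.

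HD hippocampus had H3K4me3 peaks at the same 5 windows as WT hippocampus, those of Gad1, Gad2, Dlx1/Dlx2, Lhx6 and Npy, and neither library had a peak in the Sst window. Over the 6 windows, HD peaks covered 18541 bp and WT peaks 12682 bp, a ratio of 1.46. Of this length 11648 bp was covered in both libraries, 6893 bp in HD only and 1034 bp in WT only. The HD library covered more in the windows of Gad2, Dlx1/Dlx2 and Lhx6, and the Gad1 and Npy windows differed by 2 bp and 33 bp. Without the Dlx1/Dlx2 window the sums were 13090 bp in HD and 10834 bp in WT, a ratio of 1.21. With only the regions marked in both libraries they were 13886 bp in HD and 12682 bp in WT.

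**Figure D1:**
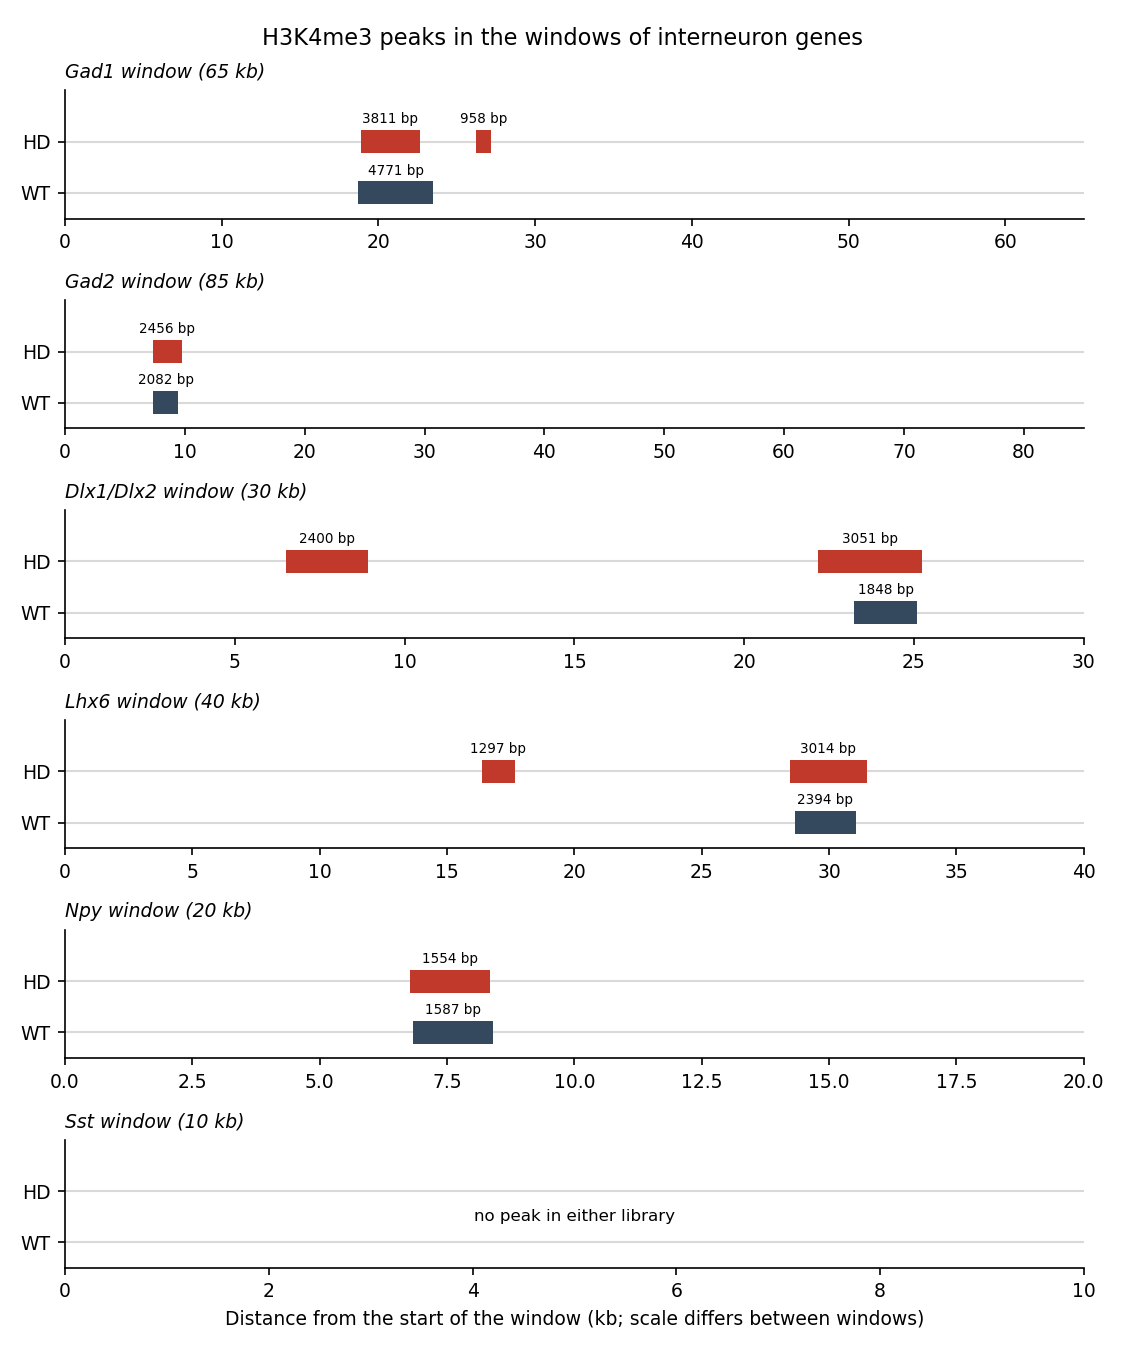
H3K4me3 peaks in each window, HD above WT, as bars along the distance from the window's start in kb, with widths in bp; 1 library per genotype. The HD library had a second peak in the Gad1, Dlx1/Dlx2 and Lhx6 windows, and the Sst window was empty in both.

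Of the GABA-synthesizing enzymes, Gad1 carried the widest peak of the set in each library. The window spans positions 70380000 to 70445000 of chromosome 2. The HD peak lay at 70398860 to 70402670, 3811 bp wide with a score of 979.17, and the WT peak at 70398712 to 70403482, 4771 bp wide with a score of 397.22. The HD peak was wider than 95.7% of other HD peaks of like score (within 1.2-fold), and the WT peak wider than 99.2% of such WT peaks. The HD peak was shorter, at a log2 ratio of HD over WT of -0.32, and most of the shortening was on the right, where its edge lay 812 bp inside the WT edge, against 148 bp on the left. Gad1 is on the plus strand, so the right edge is the one in the direction of transcription. Of the 16873 regions with 1 peak of each library, of any width, 1.38% had a right edge further inward in bp. The log2 ratio was less unusual. It was lower in 13.1% of all regions with peaks of both libraries, and in 14.3% of the 998 with a like WT score.

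A second HD peak lay beyond the first, at 70406208 to 70407165, 958 bp wide with a score of 87.49. No WT peak overlapped it, and the nearest WT edge was 2725 bp away. With this peak included, the covered length of the Gad1 window was 4769 bp in HD and 4771 bp in WT, so the 958 bp gained and the 960 bp lost nearly cancelled. Of 1259 other HD peaks of like score, 39.1% also had no WT counterpart.

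Gad2, on the plus strand of chromosome 2, had 1 peak of each library in its window of 22470000 to 22555000. The HD peak spanned 22477309 to 22479764, 2456 bp with a score of 561.54, and the WT peak 22477379 to 22479460, 2082 bp with a score of 158.81. The HD peak contained the WT peak and reached 70 bp further on the left and 304 bp further on the right. The log2 ratio was 0.24, higher than in 93.5% of the 17367 regions with peaks of both libraries (shared regions) and in 89.2% of the 955 with a like WT score.

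The windows of the homeobox genes showed the largest differences in covered length per window. Among the shared regions the Dlx2 side differed most. The Lhx6 region (log2 ratio 0.33, 620 bp longer in HD) differed about as much as that of Gad1 (-0.32, 960 bp shorter). In the Dlx1/Dlx2 window, at 71360000 to 71390000 of chromosome 2, peaks covered 5451 bp in HD, against 1848 bp in WT. The RefSeq gene order places Dlx1 before Dlx2, and the window's peaks are called here by the side on which they lay. On the Dlx2 side, the HD peak spanned 71382178 to 71385228, 3051 bp with a score of 495.50, and the WT peak 71383244 to 71385091, 1848 bp with a score of 137.76. The HD peak was 1.65-fold longer (log2 ratio 0.72), which ranked 66 among the gains of the 17367 shared regions. Nearly all of the added length lay at the left edge, 1066 bp beyond the WT edge, against 137 bp at the right edge. Dlx2 is on the minus strand, so left is its direction of transcription. A left edge less far outward was found in 99.8% of regions with 1 peak of each library. In regions with a WT score within 1.2-fold the median log2 ratio was -0.11, and 99.2% of these 1008 regions lay below the Dlx2 side. In 872 regions with a like HD score the median was -0.07, and 99.1% lay below it.

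On the Dlx1 side, only the HD library had a peak, at 71366523 to 71368922. It was 2400 bp wide with a score of 98.64, and the nearest WT peak was 14321 bp away, on the Dlx2 side. The score lay in the lower part of the HD list, with 14.4% of its peaks at or below it. Of 1204 other HD peaks of like score, 33.5% had no WT counterpart either. Its width was larger than that of 99.0% of those peaks, whose median was 1170 bp.

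Lhx6, on the minus strand, had HD peaks covering 4311 bp and a WT peak of 2394 bp in its window, at 35930000 to 35970000 of chromosome 2. The shared region lay at 35958464 to 35961477, all of it covered by the HD peak of 3014 bp (score 306.51), with the WT peak of 2394 bp (score 221.84) inside it. The HD edges reached 187 bp further on the left and 433 bp further on the right, a log2 ratio of 0.33, higher than in 96.6% of all shared regions and in 94.1% of those with a like WT score. The second HD peak, at 35946359 to 35947655, was 1297 bp wide with a score of 136.49 and lay 10995 bp from the nearest WT peak, in the direction in which Lhx6 is transcribed. Of 1078 other HD peaks of like score, 17.9% had no WT counterpart. Their median width was 1278 bp, close to that of this peak.

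**Figure D2:**
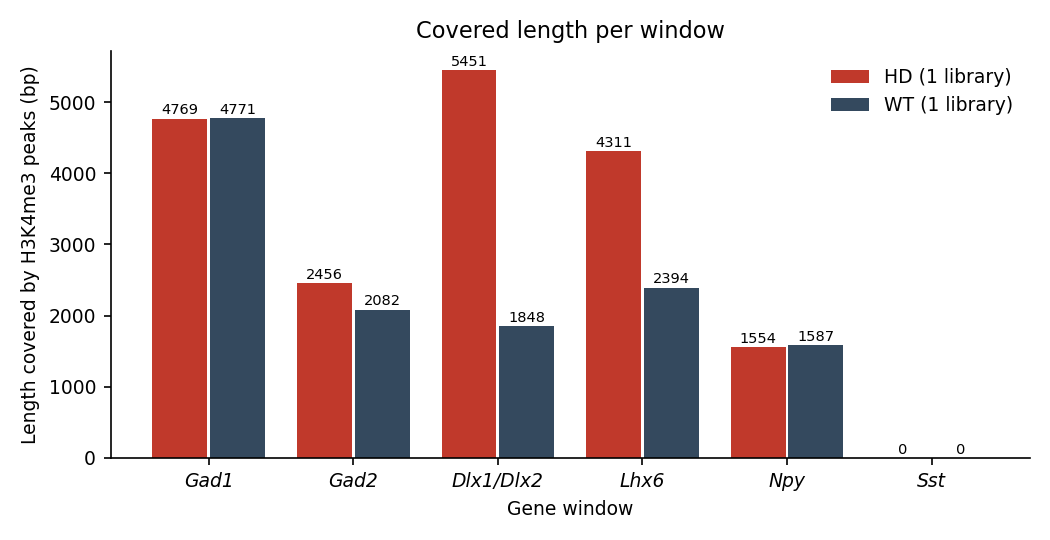
Length covered by H3K4me3 peaks in bp, per gene window, HD left of WT; each bar is 1 library. HD bars were taller at Gad2 (2456 and 2082 bp), Dlx1/Dlx2 (5451 and 1848 bp) and Lhx6 (4311 and 2394 bp), and near equal to WT at Gad1 and Npy.

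In the neuropeptide windows HD peaks covered no more than WT peaks. In the Npy window, at 49765000 to 49785000 of chromosome 6, the HD peak spanned 49771782 to 49773335 (1554 bp, score 245.26) and the WT peak 49771823 to 49773409 (1587 bp, score 118.69). The HD peak lay 41 bp further out on the left and 74 bp further in on the right, a log2 ratio of -0.03. That value was higher than in 63.1% of shared regions.

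In the Sst window, at 23885000 to 23895000 of chromosome 16, neither list had a peak. The lists hold only peaks with a score of at least 50.01, so weaker signal there is not shown. The nearest peaks lay beyond the window's right end, by 2694 bp in HD and 2609 bp in WT, and overlapped each other. The HD peak there, at 23897695 to 23899302, was 1608 bp wide with a score of 202.78, and the WT peak, at 23897610 to 23899510, was 1901 bp wide with a score of 302.72. The log2 ratio of this region, which is not a member, was -0.24. In the other direction the nearest peaks were 273 kb away in both libraries. The Npy window had no near peak on either side: the nearest other peak was 164 kb from it in HD and 198 kb in WT.

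Among the 5 shared regions of the windows, 3 were longer in HD (Gad2, the Dlx2 side and Lhx6) and 2 shorter (Gad1 and Npy). Over all 17367 shared regions, 30.8% were longer and 69.0% shorter in HD, and the median log2 ratio was -0.09 (quartiles -0.22 and 0.03). The median of the 5 was 0.24. Past 1.5-fold, the Dlx2 side was longer, against 0.749% of shared regions, and no region of the windows was shorter, against 2.79%. None of the 5 was divided into more peaks in HD than in WT, against 2.13% of shared regions. These are counts of 5 regions in 1 pair of libraries, 4 of them on chromosome 2.

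**Figure D3:**
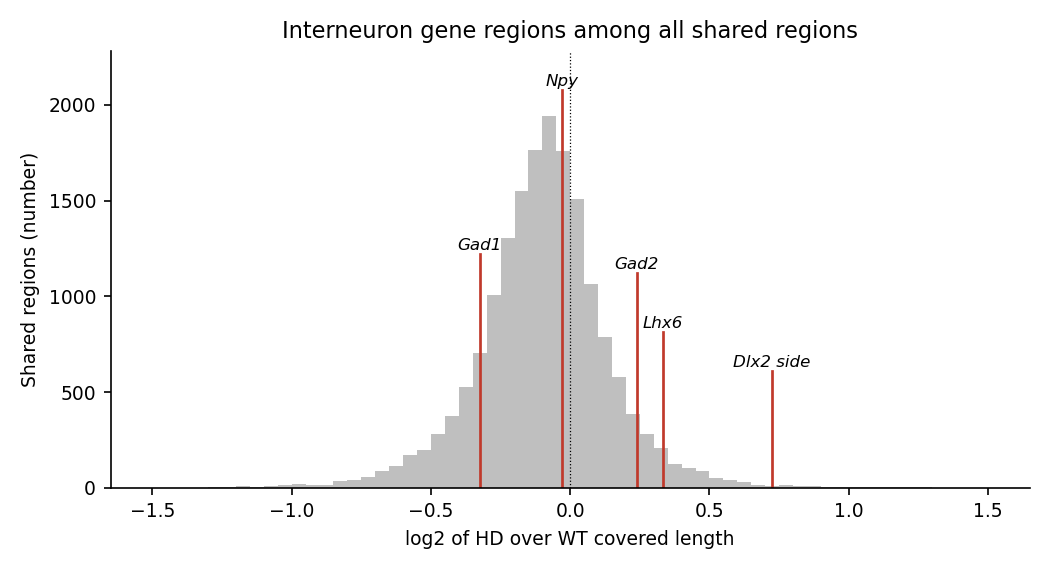
Number of shared regions (grey) by log2 of HD over WT covered length, with red lines at the 5 shared regions of the gene windows; the line heights carry no value. The Dlx2 side (0.72), Lhx6 (0.33) and Gad2 (0.24) lie right of 0, Npy (-0.03) near it and Gad1 (-0.32) on the left.

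At 7 of the 10 edges of these regions HD reached further out than WT, against 35.2% of the 33746 edges of all regions with 1 peak of each library. Both edges lay outside the WT edges at Gad2, the Dlx2 side and Lhx6, as in 13.1% of all such regions, and both lay inside at Gad1, as in 42.7%. Over those regions the median HD edge stood inside the WT edge, by 62 bp at the left end and by 64 bp at the right end. The outward reach was on the left at the Dlx2 side and mainly on the right at Gad2 and Lhx6. Relative to the strand, the longer outward step was in the direction of transcription for Gad2 and the Dlx2 side, and against it for Lhx6. These directions rest on the strand alone, since no peak was tied to a gene's start.

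**Figure D4:**
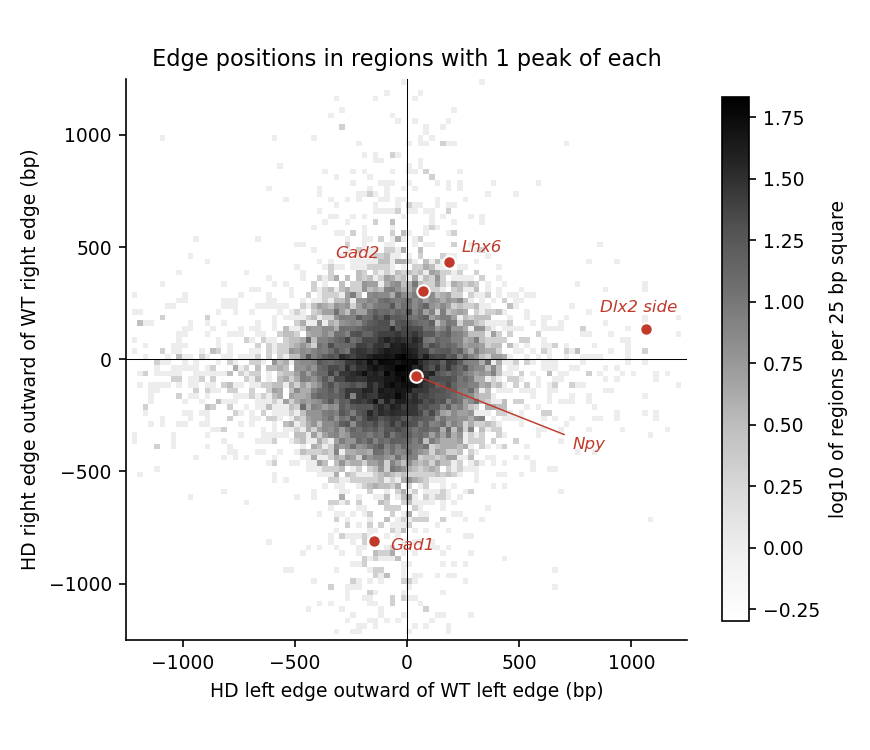
Distance in bp by which the HD edge lay outward of the WT edge, left edge against right edge, for regions with 1 peak of each library (grey, number per square on a log10 scale) and for the gene windows (red). Gad2, Lhx6 and the Dlx2 side lie in the upper right and Gad1 in the lower left; 198 regions with larger differences are not drawn.

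Extra peaks were found in the HD library alone. In 3 windows HD had 2 peaks and WT 1, and in no window had WT more. Of the 8 HD peaks, 3 had no WT counterpart, 37.5%, against 9.30% of all HD peaks. The exact 95% binomial interval of the 37.5% was 8.52 to 75.5%. It covers counting error over peaks alone and takes the peaks as independent, although some shared a window. It includes 9.30%, which decides nothing. That share is over HD peaks of every score, and all 8 members scored below the HD median. Of the 5 WT peaks none lacked an HD counterpart, against 5.50% of all WT peaks. Among other WT peaks of like score the share was 8.19% for Npy and 5.54% for the Dlx2 side. It was 2.99% for Gad2, 0.644% for Lhx6 and 0% for Gad1. None of 5 is thus close to the share of such peaks. The 3 peaks had low scores, at which missing counterparts were common: among HD peaks with a score from 75 to below 100 the share was 38.3%, and from 100 to below 150 it was 22.8%. The extra peaks were separate from the shared ones, with gaps between the HD peaks of 3537 bp at Gad1, 13255 bp at Dlx1/Dlx2 and 10808 bp at Lhx6, and so are not pieces of a peak that WT had whole.

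**Figure D5:**
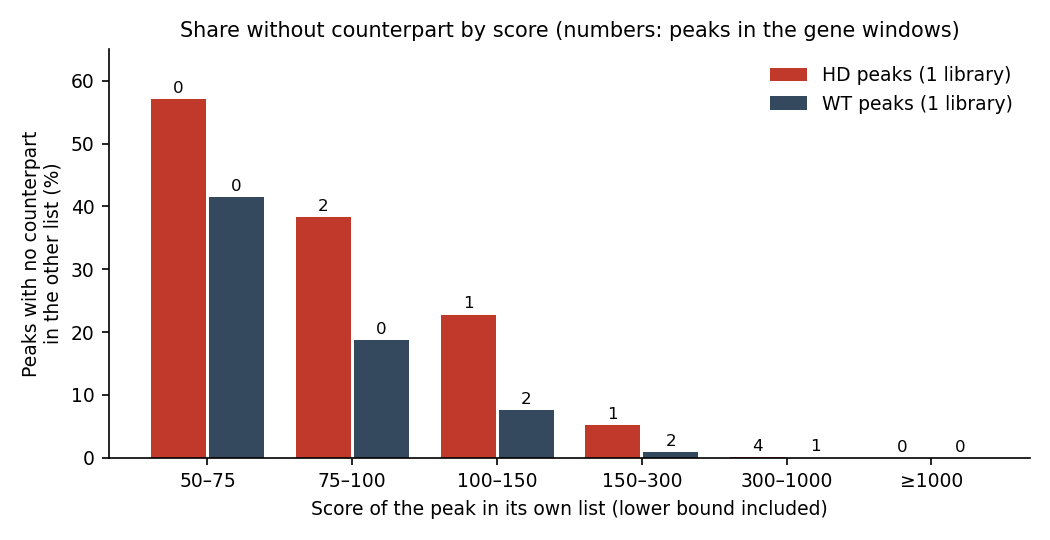
Percent of peaks with no overlapping peak in the other list, by score in their own list, HD left of WT, 1 library each; the number above a bar counts the peaks of the gene windows in that class. The 3 HD peaks without counterpart fall in the classes from 75 to below 150, where 38.3% and 22.8% of HD peaks had none.

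All 13 peaks scored below the median of their own list, which was 1144 in HD and 843 in WT. The members ranged from 87.49 to 979.17 in HD and from 118.69 to 397.22 in WT. As percentiles of the own list, the scores of all 5 shared regions stood higher in HD than in WT. In HD and WT they were 46.5 and 35.2 at Gad1, 37.7 and 22.5 at Gad2, and 36.1 and 20.2 at the Dlx2 side. They were 30.3 and 27.2 at Lhx6 and 27.6 and 17.9 at Npy. The same comparison was not made over all shared regions, so whether 5 of 5 is unusual is unknown. The ranks also include peaks without a counterpart, 1825 in the HD list and 1019 in the WT list. Score rank and covered length thus differed in direction at Gad1 and Npy. Their widths ran from 958 to 3811 bp in HD and from 1587 to 4771 bp in WT, against list medians of 2054 bp in HD and 2268 bp in WT. Gad1 thus combined a score below the median with a width in the top decile of each list.

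The regions around each window give the same measure for their part of the chromosome. Within 1 Mb of the Dlx1/Dlx2 window, 20 other shared regions had a median log2 ratio of -0.05 and a highest value of 0.30, under the 0.72 of the Dlx2 side. Within 1 Mb of Lhx6, 18 others had a median of -0.12 and a highest value of 0.20, under the 0.33 of the Lhx6 region. Around Gad2, 10 others had a median of -0.07, and the highest, 0.59, exceeded the 0.24 of Gad2. Around Gad1 the median of 23 others was -0.05, and the lowest, -0.37, lay below the -0.32 of Gad1. Around Npy the median of 15 others was -0.16, and 2 of them were longer in HD. The Gad1 and Dlx1/Dlx2 windows lie close enough that these surroundings overlap.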

How the data were processed

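ChIP-seq with an antibody against H3K4me3 was done on hippocampus pooled from 3 mice per library, read as single ends of 50 bp per the series' design text. The deposited peak lists give positions and a score per peak, and the peak names carry the name of the caller MACS. The caller's version, its settings and the use of the input library as control are not stated in the labels or files. Per the submitters' processing notes, the tools included BWA 0.5.9, CASAVA 1.8.2 and SAMtools, and the builds NCBIM37 and mm9 (1 assembly under 2 names). The deposited score column has no stated unit. Input data were not used. Per the labels, the WT reads were also part of an earlier deposit, which is not said of HD.

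Peaks overlapping a window by at least 1 bp were members. Overlapping peaks of both lists were joined into regions, and covered lengths were compared as log2 of HD over WT. Positions count from 1. Python 3.11.15, numpy 2.4.6, pandas 2.3.3, scipy 1.17.1 and matplotlib 3.10.9 were used, and the overlap code was tested on simulated data. Every gene of the 7 and every region in its window is described. The promoters printed in full were picked by the peak results of their windows, and the Dlx1/Dlx2 window was left out after its values were seen. The members, lists and alternatives were chosen with earlier results of these data known. Peaks of like score are those of the same list within 1.2-fold in score, a comparison added after the data were seen. Alternatives were peaks scoring at least 100, lists cut to equal numbers by score, joining of peaks within 1 kb, peaks cut at window ends, windows widened by 10 kb, shared regions only and leaving out the Dlx1/Dlx2 window.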

Additional observations from a re-analysis of the deposited data

How the results depend on the processing

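The log2 ratio of the summed covered length, 0.55 over the 6 windows, stayed above 0 in every alternative run. It was 0.26 when peaks had to score at least 100, 0.13 with shared regions only, 0.47 with windows widened by 10 kb and 0.27 without the Dlx1/Dlx2 window, an alternative chosen after seeing the data. Equal numbers of top scoring peaks, joining within 1 kb and cutting at window ends left it at 0.55. None of these settings could change it. The smallest gap between member peaks was 3537 bp, and no member peak crossed a window end. Equal numbers cut the HD list from 19631 to 18515 peaks from the lowest scores up. In that list 1875 peaks scored below 75, and the lowest HD member scored 87.49. The windows with more HD than WT peaks numbered 3 as deposited and 1, Lhx6, with the minimum score of 100, since the second peaks at Gad1 and Dlx1/Dlx2 score below it. That minimum turned the Gad1 window to -0.32 and lowered the Dlx1/Dlx2 window, 1.56 as deposited, to 0.72. Of the values of single windows under the alternatives, 25 kept their value and 5 moved without a change of sign. Many of the 25 could not have moved. The settings that left the sum at 0.55 could not reach them. Neither could the wider windows, since the nearest outside peak of a marked window was 20.7 kb away. Widened windows brought in the shared peak beside Sst, so that 6 windows held peaks of both libraries instead of 5. No paired analysis was possible because there was a single library of each genotype. With depth unknown, a weak peak missing from a list need not be missing from the tissue.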
